A study of Mus musculus with 5 samples.

Results

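Stra8, Dmrt1 and 8 genes of the retinoic acid pathway were followed in newborn mouse ovaries that lack the LIM homeodomain transcription factor gene Lhx8. The genes were Stra8, Dmrt1, Rdh10, Aldh1a1, Aldh1a2, Aldh1a3, Crabp1, Crabp2, Cyp26b1 and Rarb. Every probe set whose only gene symbol was one of these names was taken, with no brightness filter, which gave 13 probe sets for the 10 genes out of 45101 probe sets on the array. 8 genes had 1 probe set, Rdh10 had 2 and Aldh1a3 had 3. The genes were picked with results of the same Lhx8 null against wild type comparison in view, among them a higher Stra8 and a lower Aldh1a1, so their differences are given as a description with no test.

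The 5 arrays carried RNA from 3 pools of Lhx8 null ovaries (replicates 1, 2 and 3) and 2 pools of wild type ovaries (replicates 2 and 3). All animals were female, aged 0.5 days, of a C57/BL6/129SVEV hybrid background, and a pool held 50 ovaries of at least 25 animals. How the null allele was built is not described in the labels. Whole ovaries were pooled, so a lower signal from fewer cells of a type cannot be told apart from a lower signal from less RNA per cell. In the same way, a higher signal from a larger share of a cell type cannot be told apart from more RNA per cell.

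Retinoic acid is made from vitamin A in consecutive steps: a retinol dehydrogenase such as RDH10 makes retinal, and ALDH1A enzymes oxidise retinal to retinoic acid. CRABP proteins bind retinoic acid in the cytosol, CYP26 enzymes break it down, and RAR receptors paired with RXR bind it in the nucleus and switch genes on from retinoic acid response elements. In the fetal mouse ovary Stra8, named for its response to retinoic acid, is needed for germ cells to enter meiosis and is expressed in a wave around that step. DMRT1, a DM-domain transcription factor, promotes Stra8 expression in germ cells of the fetal mouse ovary and maintains Sertoli cell identity in the testis.

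The retinoic acid response element is a direct repeat of hexamers, and the promoters of Rarb and Stra8, the members best known as retinoic acid targets, are shown for that reason. RefSeq promoters (GRCm38.p6) were at hand for 6 of the 10 members, and the 250 bases before each start were searched on both strands for the hexamer AGGTCA and for its variants AGTTCA and also GGGTCA and lastly GGTTCA, which are in capitals here. The Rarb window is chr14:16575477-16575726 on the minus strand, and the Stra8 window is chr6:34920698-34920947 on the plus strand.
Rarb: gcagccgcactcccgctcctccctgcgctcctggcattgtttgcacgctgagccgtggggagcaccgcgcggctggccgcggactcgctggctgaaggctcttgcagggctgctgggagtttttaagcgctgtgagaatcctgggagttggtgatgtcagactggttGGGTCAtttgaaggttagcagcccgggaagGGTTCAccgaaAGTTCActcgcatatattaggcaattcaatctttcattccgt
Stra8: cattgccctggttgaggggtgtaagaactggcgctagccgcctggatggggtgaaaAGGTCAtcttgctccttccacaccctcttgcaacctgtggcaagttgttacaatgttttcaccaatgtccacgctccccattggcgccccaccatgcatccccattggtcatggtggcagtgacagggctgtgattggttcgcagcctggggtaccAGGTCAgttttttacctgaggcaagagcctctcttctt

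Rarb held the direct repeat with a spacer of 5 bases, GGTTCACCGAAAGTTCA, from 53 to 37 bases before its start. Such a repeat of any of the 4 hexamers stood in 29 of 32851 windows of the same length (0.0883%). A further hexamer, GGGTCA, began 83 bases before the Rarb start. Stra8 held AGGTCA on the plus strand at 194 to 189 and at 38 to 33 bases before its start, with no repeat at a spacer of 1, 2 or 5 bases. At least 1 AGGTCA on either strand was found in 14% of all windows and at least 2 in 1.36%. The windows of Cyp26b1, Aldh1a2 and Crabp1 held none of the 4 hexamers, and of the 2 Aldh1a1 starts 1 had a GGGTCA on the minus strand. At least 1 of the 4 hexamers was found in 38.6% of all windows. These matches are letters in a window and were not measured as binding.

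The targeted gene, Lhx8, had signals of 332.6, 159 and 347.4 in null ovaries, against 6450.1 and 5223.1 in wild type ovaries (replicates in numerical order here and below). After normalisation it fell by 4.45 as a log2 value (SE 0.30, limma adjusted p = 9.53e-05, 3 null and 2 wild type arrays). Whether its probe set lies inside the altered stretch is not known from the labels.

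Stra8, Dmrt1, Rdh10, Aldh1a2, Aldh1a3, Crabp1, Crabp2 and Rarb had a higher mean signal in Lhx8 null ovaries, and Aldh1a1 and Cyp26b1 had a lower one. Over the whole array, 21.0% of the 45037 probe sets tested passed (limma, adjusted p below 0.05), 10.7% as higher and 10.3% as lower in null ovaries. With each array centred on its median, 35% of the calls over all probe sets were higher, against 50.9% in the main scaling. That centring moved the median difference of all probe sets to -0.13, against 0.00 in the main scaling, and the deposited scaling moved it to 0.11. At 11 of the 13 member probe sets the normalised groups were apart, without overlap, where this held for 49.5% of all probe sets. Nothing is read from this count, since the genes were chosen on this comparison.

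**Figure D1:**
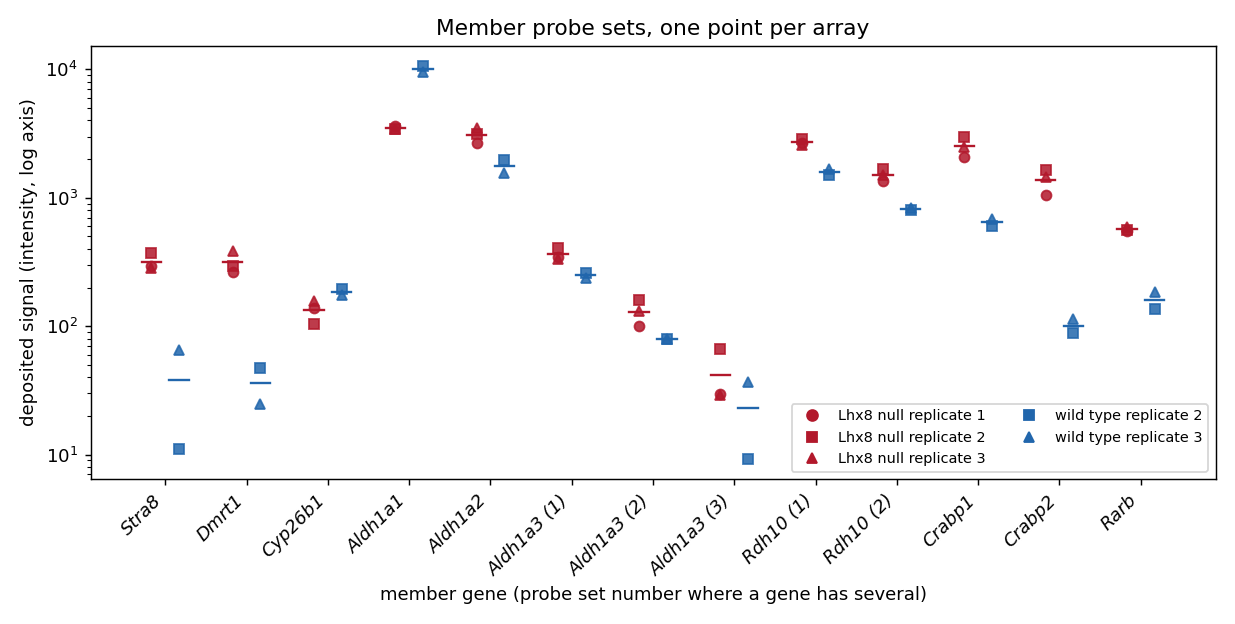
Deposited signal (intensity, log axis) of the 13 member probe sets, with red points for null arrays to the left of blue points for wild type arrays, a symbol for each replicate and a bar at each group mean. Levels of different probe sets cannot be set against each other; within a probe set, Crabp2 shows the widest separation and the third Aldh1a3 probe set overlaps.

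Stra8 had signals of 293.7, 374.6 and 285.4 in null ovaries, against 11 and 65.6 in wild type ovaries. All null arrays lay far above both wild type arrays. On the normalised log2 scale the wild type arrays differed by 1.59 and the null arrays by at most 0.46. The null values stood at percentiles 64.1, 69.2 and 65 of all probe sets on their arrays, and the wild type values at percentiles 16.2 and 42.9. Means were 318 ± 49.3 (SD, n = 3) in null and 38.3 ± 38.6 (SD, n = 2) in wild type ovaries. The difference was 2.64 on the log2(signal + 16) scale (SE 0.46), and it was 1.82 without wild type replicate 2 and 3.42 without wild type replicate 3.

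Dmrt1 had signals of 264.3, 293.7 and 387.8 in null ovaries and 47.1 and 24.6 in wild type ovaries. The groups did not overlap, and as with Stra8 the wild type signals were dim, at percentiles 36.8 and 24.6 of their arrays. Means were 315 ± 64.5 (SD, n = 3) in null and 35.8 ± 15.9 (SD, n = 2) in wild type ovaries, a difference of 2.50 (SE 0.34). Because the wild type signals were dim, the size varies with the constant added before the log: adding 64 and not 16 gave 1.84 for Stra8 and 1.80 for Dmrt1. Both genes pass a filter on mean brightness only through their null arrays.

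Enzymes of retinoic acid synthesis moved in both directions. Rdh10, which oxidises retinol to retinal, had signals of 2669.8, 2846.8 and 2575.7 in null ovaries, against 1517.5 and 1680.2 in wild type ovaries at its brighter probe set. Its other probe set had 1341.6, 1669 and 1504.9 in null ovaries and 800.6 and 830.1 in wild type ovaries. Every null array was above every wild type array at both, and the log2 differences were 0.81 (SE 0.11) and 0.91 (SE 0.14), or 0.50 and 0.62 with median centring.

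Aldh1a1, a retinaldehyde dehydrogenase gene, had signals of 3622.5, 3404.6 and 3457.8 in null ovaries, against 10699 and 9517.6 in wild type ovaries. The null arrays were close together and all far below both wild type arrays. Means were 3495 ± 114 (SD, n = 3) in null and 10108 ± 835 (SD, n = 2) in wild type ovaries, and the difference was -1.60 (SE 0.11). It ranged from -1.77 to -1.53 over 13 alternative settings.

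Aldh1a2, the main retinaldehyde dehydrogenase of the early embryo, had signals of 2683.2, 3164.3 and 3468.1 in null ovaries and 1973.5 and 1560.1 in wild type ovaries. The groups did not overlap, and the gap between the nearest arrays was 0.52 on the normalised log2 scale. Its difference was 0.87 (SE 0.15). With each array centred on its median it was 0.56.

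Aldh1a3, the third enzyme of the family, had signals of 345.7, 406.5 and 333.9 in null ovaries and 259.8 and 239.2 in wild type ovaries at its brightest probe set, a difference of 0.39 (SE 0.20). The null arrays were higher there without overlap. Its dimmer probe sets had differences of 0.35 (SE 0.34) and 0.41 (SE 0.48) and overlapping groups after normalisation. At the dimmest of the 3 the difference turned to -0.12 without wild type replicate 2.

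The cytosolic retinoic acid binding protein genes were both higher in null ovaries. Crabp1 had signals of 2090.3, 2980.6 and 2497.8 in null ovaries, against 599 and 685.1 in wild type ovaries, and a difference of 1.95 (SE 0.16). Crabp2, whose product carries retinoic acid to its receptor in the nucleus, had 1051.3, 1647.4 and 1463.4 in null ovaries, against 88.2 and 113.9 in wild type ovaries. Null replicate 1 was the lowest of the null arrays for both genes, yet far above the wild type arrays. Crabp2 had the widest gap between groups of the 13 probe sets, 2.90 on the log2 scale, and the largest difference, 3.44 (SE 0.22). Its mean signals were 1387 ± 305 (SD, n = 3) in null and 101 ± 18.2 (SD, n = 2) in wild type ovaries, a ratio of 13.7.

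Cyp26b1, the retinoic acid hydroxylase that keeps retinoic acid low in the fetal mouse testis, had signals of 137.4, 103.3 and 157.2 in null ovaries and 195.5 and 174.7 in wild type ovaries. The null arrays were lower without overlap, but the gap was small (0.30) beside the range of the null arrays (0.53). The difference was -0.66 (SE 0.29). It ranged from -0.81 to -0.45 over 13 alternative settings, some of which change only the test and not the estimate.

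Rarb, a retinoic acid receptor gene that is itself switched on through the repeat printed above, had signals of 548, 557.5 and 593.3 in null ovaries, against 135.8 and 183.2 in wild type ovaries. The null arrays agreed to within 0.15 on the normalised log2 scale and stood 1.35 above the nearer wild type array. Means were 566 ± 23.9 (SD, n = 3) in null and 159.5 ± 33.5 (SD, n = 2) in wild type ovaries, and the difference was 1.61 (SE 0.19).

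**Figure D2:**
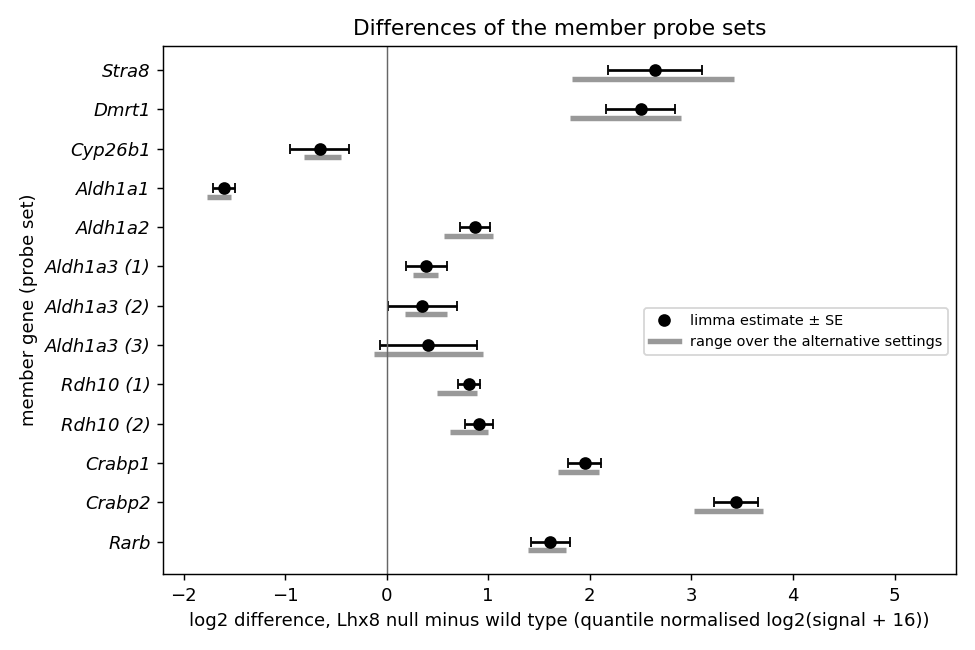
Log2 difference, null minus wild type, of each member probe set (points with SE bars), with grey bars for the range over the alternative settings. Ranges lie on one side of 0 for all but the third Aldh1a3 probe set, which reaches -0.12, and Aldh1a1 and Cyp26b1 are the members below 0.

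Among 53 further genes of the pathway, listed by role, 47 had a probe set. Each is given by its brightest probe set. 13 of the 47 rose, 3 fell and 31 did not pass (limma, adjusted p below 0.05), where 14.0% of all 18193 genes rose and 13.5% fell. These lists, and the meiotic entry and DMRT lists below, were chosen with earlier results of these data known. Their counts and medians are therefore a description and not a test of the lists. Their median log2 fold change was 0.20, against -0.02 for all genes. This median was 0.04 with median centring, 0.07 with an added constant of 64, 0.44 with a constant of 1 and 0.42 over the genes above the brightness level given next. With median centring 9 rose and 5 fell. 28 of the 47 were above the brightness level that leaves out the dimmest 40% of probe sets. Without wild type replicate 2, 8 rose and 2 fell, and without wild type replicate 3, 7 rose and 0 fell. Without null replicate 3, 10 rose and 1 fell.

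In the uptake, storage and carrier list 2 of 11 genes rose and 1 fell. Stra6, the cell surface receptor that takes up retinol, had signals of 670.5, 640.9 and 585.7 in null ovaries and 238.6 and 135.2 in wild type ovaries and rose by 1.62 (SE 0.23, adjusted p = 0.00198). Fabp5, a lipid-binding protein gene whose product can also carry retinoic acid, rose by 1.63 (SE 0.17, adjusted p = 0.000583). Bco1, which cleaves beta-carotene to retinal, fell by 1.39 (adjusted p = 0.0478), with -0.84 when wild type replicate 3 was left out and -1.92 when wild type replicate 2 was. This call failed in 8 of 13 alternative settings, among them those without null replicate 1 (adjusted p = 0.0724), 2 (0.0955) or 3 (0.106) and without wild type replicate 3 (0.329). Rbp3, a retinoid-binding protein gene of the retina, had -1.33 (adjusted p = 0.16) and did not pass.

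Of 17 retinol and retinal oxidoreductase genes 4 rose and 2 fell. Adh1, an alcohol dehydrogenase that oxidises retinol, had 2893.6, 3101.5 and 3680.3 in null ovaries, against 547.4 and 744.4 in wild type ovaries, and rose by 2.32 (SE 0.16, adjusted p = 0.000109). Dhrs3, a retinal reductase that is induced by retinoic acid, rose by 0.80 (adjusted p = 0.00678) and Dhrs4 by 0.96 (adjusted p = 0.014). Dhrs3 did not pass without wild type replicate 3 (adjusted p = 0.0691), and Dhrs4 did not without null replicate 2 (adjusted p = 0.0503) or wild type replicate 2 (adjusted p = 0.118). Rdh11, a retinal reductase gene, fell by 1.06 (adjusted p = 0.0131), but its other probe set stood at -0.13, and without wild type replicate 3 it did not pass (adjusted p = 0.131). Rdh13 and Rdh9, singled out after their values were seen to complete the counts, had 0.59 (SE 0.17, limma adjusted p = 0.0402) and -1.20 (SE 0.35, limma adjusted p = 0.0419). Both were only just past the threshold, and their calls were not followed singly over the alternative settings. Cyp26a1, the other hydroxylase measured, was dim on all arrays, between 11 and 57.7, and had -0.26 (adjusted p = 0.793).

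Of the 5 other retinoid receptor genes 1 rose. Rarg had signals of 375.4, 457.6 and 563.4 in null ovaries and 252.6 and 196.4 in wild type ovaries and rose by 0.89 (adjusted p = 0.0317), with 1.43 at its other probe set. The Rarg call was lost without null replicate 2 (adjusted p = 0.0928) or 3 (0.104) and without wild type replicate 2 (0.0961) or 3 (0.204). Rxra, Rara and Rxrb had 0.44, 0.42 and 0.06 and did not pass, and the 2 other Rxra probe sets gave -0.30 and -0.08. Among 8 coregulator genes 3 rose and 0 fell: the orphan nuclear receptor genes Nr2f1 and Nr2f2, by 2.12 (SE 0.23, adjusted p = 0.000616) and 1.10 (adjusted p = 0.0125), and Nr2c2, by 0.40 (adjusted p = 0.0331). NR2F proteins can compete at retinoic acid response elements. Of the 5 other Nr2f2 probe sets 1.18 and 0.89 passed, and 0.62, 0.80 and -0.59 did not. The 5 other Nr2c2 probe sets gave 0.21 to 1.13, and none passed. Nr2f2 did not pass without wild type replicate 2 (adjusted p = 0.0943) or 3 (0.108). Nr2c2 did not pass without null replicate 2 (adjusted p = 0.0706) or 3 (0.0998) or wild type replicate 2 (0.127) or 3 (0.141), and had 0.09 with median centring. The coactivator gene Ncoa2 had -0.36 (adjusted p = 0.0849), and it passed with median centring (-0.66, adjusted p = 0.0239). Other Ncoa2 probe sets gave -1.09, -1.59 and 0.60.

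Of 5 genes listed as retinoic acid responsive 3 rose and 0 fell. Meis1, a homeobox gene, had signals of 2690.7, 3479.3 and 3190.1 in null ovaries and 864.6 and 851.8 in wild type ovaries and rose by 1.87 (SE 0.13, adjusted p = 0.000102). Its other probe sets gave 2.28, which passed, and 0.47, which did not. Its relative Meis2 rose by 1.95 (SE 0.31, adjusted p = 0.0035), and it did not pass when wild type replicate 3 was left out (adjusted p = 0.053); its 3 other probe sets gave 2.53, 2.12 and 3.50. Tgm2, the tissue transglutaminase gene, rose by 1.53 (SE 0.15, adjusted p = 0.000362), and 4 of its 5 other probe sets gave 1.28 to 1.61. The fifth, with signals of at most 10.5, gave -0.37. Hoxb1 was dim and had 0.87 (adjusted p = 0.259).

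**Figure D3:**
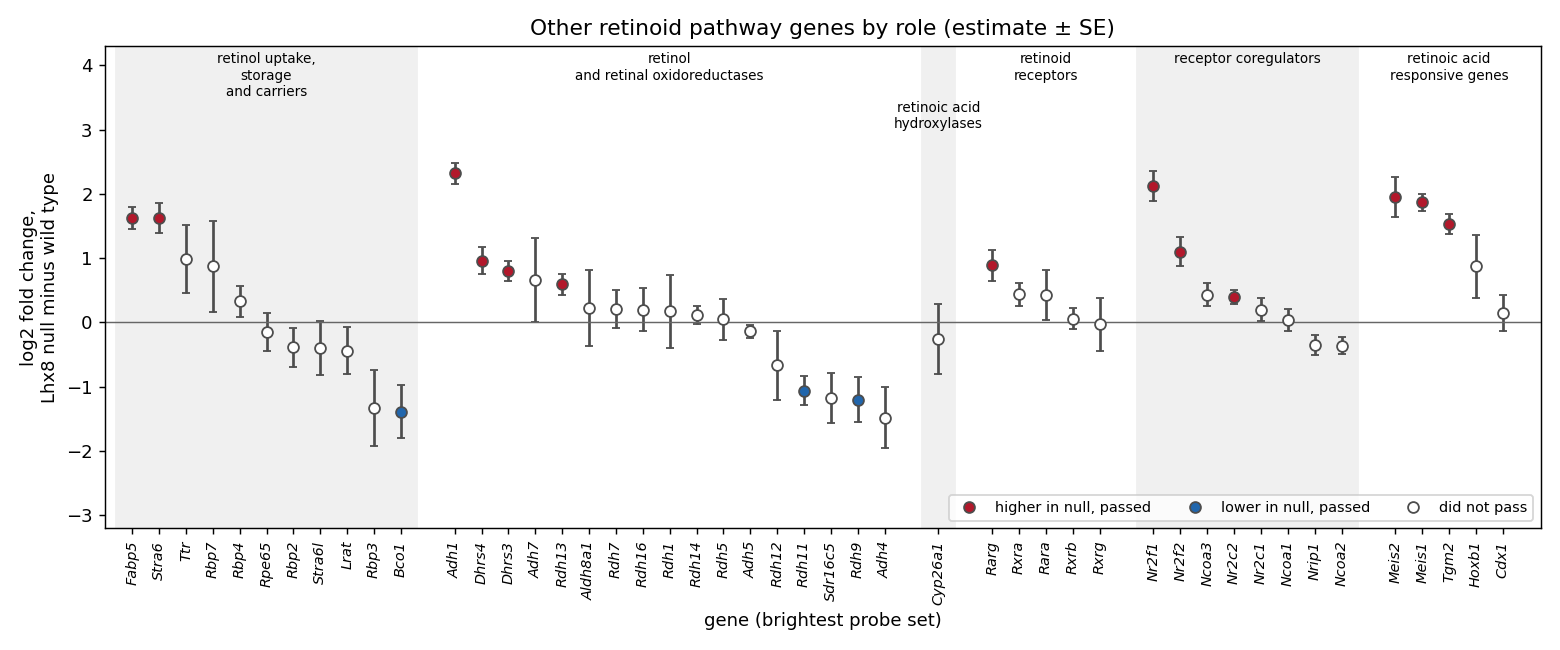
Log2 fold change, null minus wild type, with SE bars, of the 47 other retinoid pathway genes in 6 role lists (red rose, blue fell, open did not pass). Adh1 and Nr2f1 are the highest, Bco1, Rdh9 and Rdh11 are the genes that fell, and 31 of the 47 did not pass.

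Most genes of the meiotic entry list were lower where Stra8 was higher. Of 19 measured, 12 fell, 3 rose and 4 did not pass, with a median log2 fold change of -1.26, against -0.02 for all genes. 7 fell without wild type replicate 2 and 7 without wild type replicate 3. The synaptonemal complex gene Sycp3 had signals of 2189.9, 2498.4 and 3458.3 in null ovaries, against 15387.1 and 15040.9 in wild type ovaries. It fell by 2.70 (SE 0.17, adjusted p = 7.61e-05), and Syce1 and Syce2, of the same structure, had log2 fold changes of -2.82 (SE 0.16, adjusted p = 5.7e-05) and -1.46 (SE 0.10, adjusted p = 0.000107). Rec8, a meiotic cohesin gene that in mouse germ cells also responds to retinoic acid and is named here after its value was seen, had 335.4, 350.9 and 277.1 in null ovaries and 244.5 and 172 in wild type ovaries. Its null arrays were higher without overlap, but its fold change of 0.47 (SE 0.23, adjusted p = 0.195) did not pass.

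The 3 genes of the list that rose, Msx1, Msx2 and Bmp2, are known to act before Stra8 in the fetal mouse ovary. Whether their rise bears on the Stra8 difference here, and which cells it comes from, was not tested. Zglp1, a mouse oogenesis regulator downstream of BMP signals, fell by 1.26 (adjusted p = 0.0205), and it is named after its value was seen. Msx1, a homeobox gene that acts downstream of BMP signals and promotes Stra8 expression in fetal mouse germ cells, had 897.2, 1042.2 and 1035.4 in null ovaries, against 240.2 and 233.4 in wild type ovaries. It rose by 1.92 (SE 0.15, adjusted p = 0.000161). Its dimmer probe set had 1.11 and did not pass. Msx2 and Bmp2, named after their values were seen, rose by 1.66 (adjusted p = 0.00104) and 1.08 (adjusted p = 0.018).

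No other DMRT gene passed as higher. Of 7 measured, 3 fell and 4 did not pass, where 14.0% of all genes rose and 13.5% fell. Dmrta1 had signals of 84, 157.6 and 111.2 in null ovaries, against 1371.9 and 1500.2 in wild type ovaries, and fell by 3.52 (SE 0.29, adjusted p = 0.000173). Dmrtb1, which controls the switch to meiosis in mouse spermatogonia, had a log2 fold change of -1.80 (adjusted p = 0.0105) and Dmrta2 had -1.19 (adjusted p = 0.0405). Dmrtb1 did not pass without wild type replicate 2 (adjusted p = 0.109), and Dmrta2 did not without null replicate 2 (0.109) or 3 (0.106) or wild type replicate 2 (0.233) or 3 (0.153), each an adjusted p. Dmrt2 had 1.07 (adjusted p = 0.124) and passed without null replicate 1 (adjusted p = 0.0443). Its null arrays were higher without overlap, but it was below the brightness level given above.

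**Figure D4:**
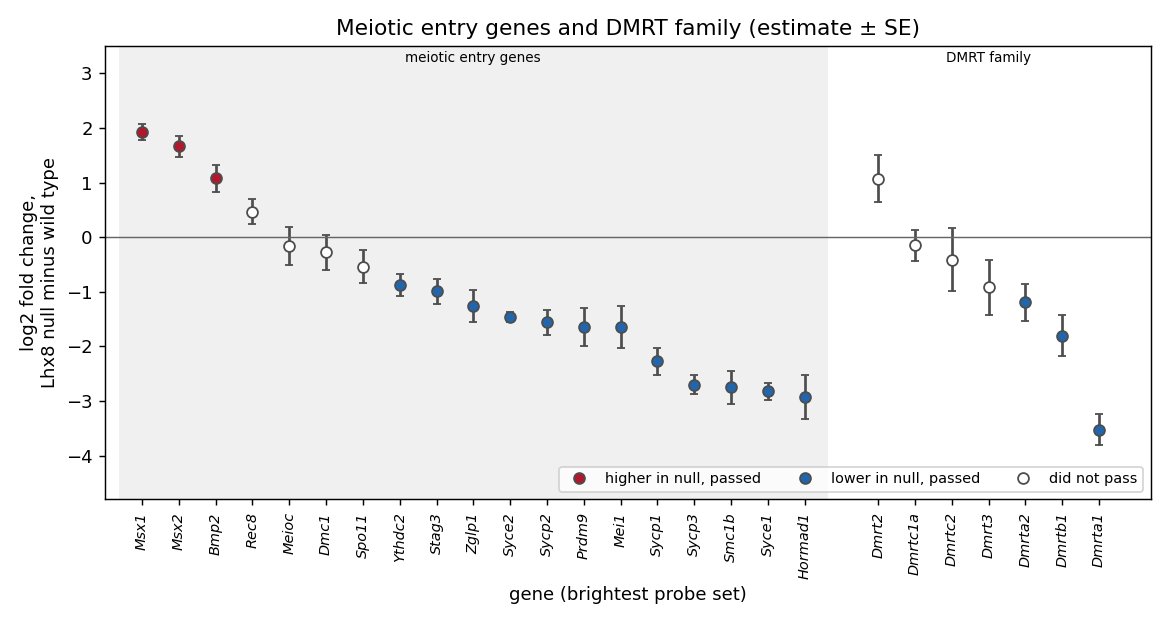
Log2 fold change, null minus wild type, with SE bars, of 19 meiotic entry genes and 7 DMRT genes other than Dmrt1 (red rose, blue fell, open did not pass). Msx1, Msx2 and Bmp2 rose, and Rec8 and Dmrt2 stand above 0 but did not pass. 12 meiotic genes and 3 DMRT genes fell, with Dmrta1 lowest at -3.52.

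Markers of several cell types moved with the groups, and their part in the differences above was not tested. Over all genes 14.0% rose and 13.5% fell. All 6 germ cell markers fell, and their summed signal was 4192 to 7615 on null arrays and 37234 to 40361 on wild type arrays. Among 6 pregranulosa markers 4 fell and 1 rose (summed 11507 to 14022 for null and 18694 to 21269 for wild type ones). Surface mesothelium markers rose in 5 of 6 cases (22028 to 24484 for null and 8419 to 8764 for wild type ones). Markers of oviduct and mesonephric epithelium rose in 6 of 7 cases (11956 to 14419 for null and 2888 to 3722 for wild type ones). Most of that wild type sum was Emx2 (3204.8 and 2442.8), which did not pass. The 6 that rose had ratios of mean signal, null over wild type, from 6.18 (Pax8) to 47 (Wfdc2). Lhx1, 1 of these, was dim, with wild type signals of 4.7 and 3.5, so its ratio of 20.4 is poorly known. Markers of stroma and tract mesenchyme rose in 7 of 8 cases (65935 to 69638 for null and 27529.9 to 30727 for wild type ones). Their ratios ran from 1.68 (Pdgfra) to 39.9 (Hand2), and Tcf21, at 0.979, did not pass.

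Endothelial markers rose in 4 of 6 cases (6521 to 7344 for null and 2341 to 2849 for wild type ones). The largest part of their null sum was Sox17, with 3058.2, 3459.6 and 3585.3 in null ovaries and 721.5 and 520.6 in wild type ovaries. Cdh5 and Tek, with log2 fold changes of 0.37 and 0.28, did not pass. Macrophage markers rose in 4 of 5 cases (6535 to 7054 for null and 2030.1 to 2187 for wild type ones). Of 5 Sertoli markers, which bear on Dmrt1, Fgf9 and Ptgds rose and 0 fell (summed 2348 to 3449.7 for null and 1234 to 1651 for wild type ones). The defining Sertoli gene Amh was near the bottom of the range, with 4.6, 4.4 and 10.1 in null ovaries, against 8.4 and 4.9 in wild type ovaries. Sox9 had 113.4, 72.4 and 115.4 in null ovaries, against 67.4 and 78.6 in wild type ovaries. Neither of the 2 nerve and glia markers measured passed (summed 125 to 134 for null and 99.2 to 104 for wild type ones). No marker was at 0 on any array. The 18 hybridisation controls are spiked in and are not ovary RNA. All were brighter on every null array than on either wild type array, with a median ratio of 1.75. This technical difference ran along the groups, and its part in the differences above was not tested.

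**Figure D5:**
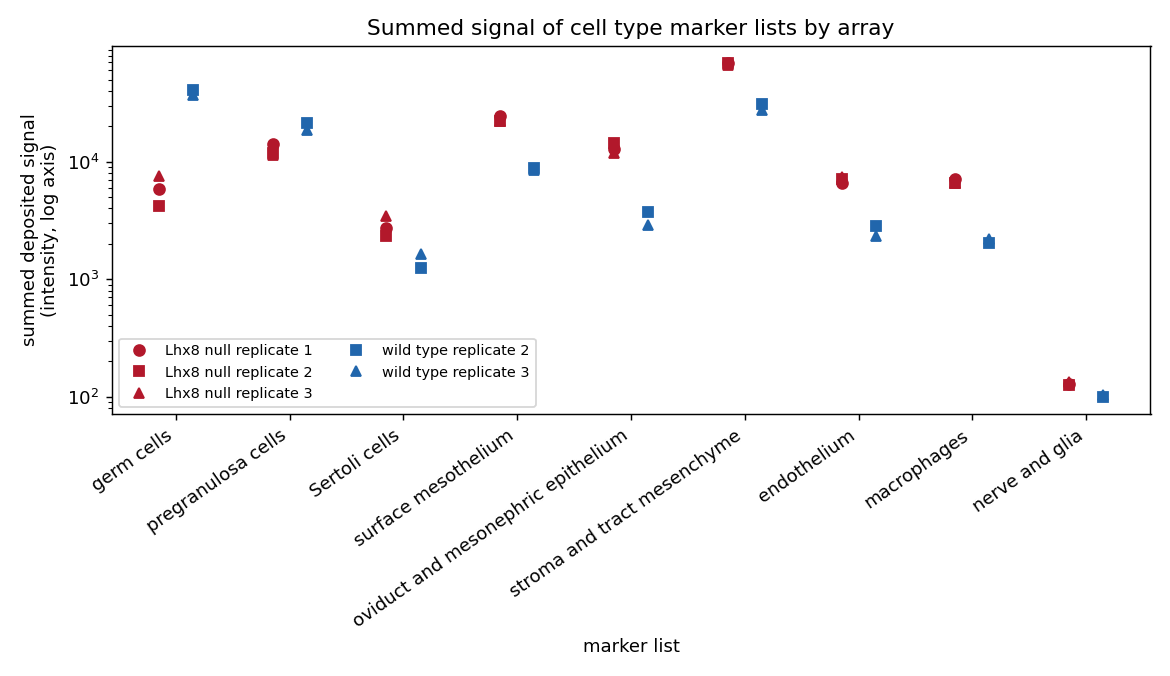
Summed deposited signal (intensity, log axis) of 9 cell type marker lists by array, with red points for null arrays to the left of blue points for wild type arrays. Germ cell and pregranulosa sums are lower on null arrays, and the other 7 sums are higher on null arrays.

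The genes most like a member were those with the smallest root mean square difference of mean-centred levels over the 5 arrays, a measure dominated by the contrast between groups. For Stra8 these were Sbspon, Vwa2, Kcne3, Ebf2 and Dlx5, at 0.256 to 0.293 on the log2 scale. For Dmrt1 they were Sox17, Col14a1, Robo2, Flrt3 and Cd14, at 0.181 to 0.226. For Aldh1a1 they were Gm527, Cnnm2, Phf13, Syce2 and Tmtc4, at 0.037 to 0.079, a closer match.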

How the data were processed

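Each of the 5 arrays was hybridised with biotin-labelled target of 1 ovary pool, per the labels' protocols, and groups and replicate numbers come from the sample labels. The authors deposited linear intensities, and the 2% trimmed mean was 500 on every array. GCOS is named for the wild type arrays, per the submitters' processing notes. No software is stated for the null arrays in those notes. Replicate 1 of the wild type was not used here. The p-values measure the spread between pools.

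Values were taken as log2(signal + 16) with quantile normalisation (limma 3.58.1, R 4.3.3), without 64 control probe sets. Null minus wild type was fitted over all 45037 probe sets (lmFit, eBayes with a trend, two-sided, Benjamini-Hochberg, threshold 0.05). Symbols came from a probe table of the platform: 34945 probe sets had 1 symbol, 932 several and 9160 none. Adjusted p-values come from this fit, except where a sentence names a left-out array or another scaling; those come from a refit with that change. Members and gene lists were chosen with earlier results of these data known. Named were Lhx8, the members, up to 4 genes of each list with the smallest p and the 5 genes most like Stra8, Dmrt1 and Aldh1a1. Listed genes without a single-symbol probe set were not analysed here. Simulated arrays of this size over 45037 probe sets had 100 changes of 1 and 100 of 2 on the log2 scale. Of these, 33% and 84% were recovered. Each simulated probe set had the typical spread at its brightness. A far larger share of probe sets was called in the data (21.0%), so these recoveries do not give the power of the fit. Plots were made in Python 3.11.15 with matplotlib 3.10.9.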

Additional observations from a re-analysis of the deposited data

How the results depend on the processing

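All member probe sets but the dimmest of Aldh1a3 kept their sign with other scalings and added constants, a replicate block and each array left out. The brightness filter, the variance model and the stricter threshold leave the estimates as they are and can change only calls. Left out in turn, the arrays gave 2134 to 5098 probe sets higher and 1801 to 4929 lower (4816 and 4642 in all), 7 to 13 retinoid pathway genes higher and 0 to 3 lower and 2 to 3 meiotic genes higher and 7 to 12 lower. With 1 wild type array left, that array was assumed to vary like the null arrays. At an adjusted p below 0.01, 2378 probe sets were higher and 2372 lower, with 8 retinoid genes higher, 0 lower and 7 meiotic genes lower. Without a trend in the variance 2953 probe sets were higher, with 8 retinoid genes higher and 1 lower. Retinoid genes numbered 12 higher and 1 lower with the deposited scaling, 9 and 5 with median centring, and 13 and 6 with probe sets averaged. With the replicate number as a block, 5147 probe sets were higher and 4683 lower. Deviations of same-numbered arrays correlated at 0.008, which does not show whether those pools were collected or run together. Of 22 named genes past the threshold, 12 passed in every setting, and the cause of the lost calls was not tested. Members, genes most like a member and genes named after their values were seen are not in this count. With 3 against 2 arrays and dim wild type signals for Stra8 and Dmrt1, the sizes of their differences are poorly known.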
